A study of Homo sapiens with 56 samples.

Results

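The MHC class II presentation genes described here are 10 genes of the antigen presentation pathway that B cells use: HLA-DRA, HLA-DRB1, HLA-DPA1, HLA-DPB1, HLA-DQA1, HLA-DQB1, HLA-DMA, HLA-DMB, CD74 and CIITA. They were taken by gene symbol, all 10 had a row, and the table holds 21595 named genes in all. The data are poly-A RNA-seq libraries, 56 in number, of 4 cultures labelled as mantle cell lymphoma cell lines: Z138 (13 libraries), JEKO-1 (15), MINO-VR (13) and MINO-P (15). Mantle cell lymphoma is a cancer of mature B cells. The series concerns inhibition of BIRC5 (survivin) and MCL-1, both proteins that block cell death, in drug-resistant lymphoma.

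Untreated libraries carried the label CON (5 libraries: 2 of Z138 and 1 of each other culture). Single agents were CLF (6 libraries), BTZ (6), IBR (11), YM155 (4) and S63845 (6). Combinations were IBR_CLF (8), BTZ_CLF (4), IBR_YM155 (2), BTZ_YM155 (2), IBR_S63845 (1) and BTZ_S63845 (1). Of these, S63845 inhibits MCL-1, and YM155 was designed as a suppressor of BIRC5 transcription. The labels give no dose or exposure time, leave the suffixes P and VR unexplained and do not expand CLF, BTZ or IBR, so these codes are used as given. A culture is 1 cell population, and nothing says that libraries of 1 group came from separate cultures, so p-values measure only the spread between these libraries.

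MHC class II molecules are pairs of an alpha and a beta chain (DR, DP or DQ) that carry peptides from endosomes to the cell surface, where helper T cells read them. CD74, the invariant chain, fills the binding groove until it is degraded, and HLA-DM then helps exchange its remnant for peptide. CIITA is the transactivator on which expression of the others depends. It does not bind DNA itself but docks on factors held at conserved promoter boxes, and B cells transcribe it constitutively from a promoter of their own.

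In the hg38 coordinates of the deposited table, 8 members lie on chromosome 6 in the MHC. They are HLA-DRA (ENSG00000204287, 32439878 to 32445047), HLA-DRB1 (ENSG00000196126, 32577902 to 32589849), HLA-DQA1 (ENSG00000196735, 32628179 to 32647063), HLA-DQB1 (ENSG00000179344, 32659467 to 32668384), HLA-DMB (ENSG00000242574, 32934629 to 32941029), HLA-DMA (ENSG00000204257, 32948613 to 32969095), HLA-DPA1 (ENSG00000231389, 33064569 to 33080776) and HLA-DPB1 (ENSG00000223865, 33075936 to 33089697). CD74 (ENSG00000019582) lies on chromosome 5 from 150401637 to 150412970, and CIITA (ENSG00000179583) on chromosome 16 from 10866222 to 10943022. HLA-DPA1 and HLA-DPB1 overlap on opposite strands, and strand use in the counting is not given in the sources used here, so reads in the overlap cannot be assigned with certainty. HLA genes differ between people and have near-identical copies (HLA-DRB1 and HLA-DRB5, HLA-DQA1 and HLA-DQA2, HLA-DQB1 and HLA-DQB2), and the authors' counting could split reads between them.

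The members' promoters are shown first as background, and their part in the levels that follow was not tested. Class II promoters carry X boxes, bound by RFX and CREB, and a Y box, bound by NF-Y, and CIITA docks on the factors held there. The RefSeq promoter table (GRCh38.p14, from 250 bases before to 50 after each start) had entries for 8 of the 10 members. The windows of 60 bases below are written 5′ to 3′ on the gene's strand. Capitals mark the motifs searched: TGATGA, chosen for its place in the X box region of HLA-DRB1, and ATTGG or its complement CCAAT, the core of the NF-Y site in the Y box.
HLA-DRB1: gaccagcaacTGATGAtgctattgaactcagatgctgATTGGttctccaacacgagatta
HLA-DMA: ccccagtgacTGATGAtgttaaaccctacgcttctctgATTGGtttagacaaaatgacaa
HLA-DMB: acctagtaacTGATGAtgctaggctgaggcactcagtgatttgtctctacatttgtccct
CD74: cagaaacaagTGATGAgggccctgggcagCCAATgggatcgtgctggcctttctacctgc
HLA-DQB1: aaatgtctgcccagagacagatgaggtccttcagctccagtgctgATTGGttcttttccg
HLA-DQA1: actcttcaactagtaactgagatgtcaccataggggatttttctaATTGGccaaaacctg
HLA-DPB1: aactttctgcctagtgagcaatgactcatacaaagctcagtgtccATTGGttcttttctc

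These windows lie at chr6:32589872-32589931 on the minus strand for HLA-DRB1, chr6:32953155-32953214 minus for HLA-DMA, chr6:32941061-32941120 minus for HLA-DMB and chr5:150412933-150412992 minus for CD74. The others lie at chr6:32666731-32666790 minus for HLA-DQB1, chr6:32637293-32637352 plus for HLA-DQA1 and chr6:33075846-33075905 plus for HLA-DPB1. HLA-DRB1 and HLA-DMA held both motifs in this order, with 21 and 22 bases between them. CD74 held TGATGA with CCAAT 13 bases further on, a pair that the last share below does not count. Over the whole promoters, CCAAT also occurred 1 time each in HLA-DRB1, HLA-DMB, HLA-DQA1, HLA-DQB1 and HLA-DPB1. HLA-DMB held TGATGA without ATTGG after it, while HLA-DQA1, HLA-DQB1 and HLA-DPB1 held ATTGG without an exact TGATGA. HLA-DPA1 had entries for 2 starts, neither with ATTGG or with TGATGA on the gene's strand. Among all 35116 promoters of the table, 10.9% held TGATGA on either strand, 34.6% held ATTGG on either strand, and 0.239% (84) held TGATGA followed 10 to 30 bases later by ATTGG. The letters were chosen with the members' promoters in view, and a match is a description of sequence, not a measured binding site. HLA-DRA and CIITA had no entry.

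The deposited values are log2(CPM + 1), where CPM is the read count scaled to a fixed library total. The level used here is nuclear CPM, the same value rescaled after leaving out the 15 mitochondrial genes, since these took from 1.91% to 80.5% of a library (median 6.69%). Depth recovered from the smallest steps in the values ran from 5.52 to 21.56 M reads (median 15.98), at which 3 reads are worth 0.146 to 2.189 nuclear CPM (counting error only). CON libraries had 1.91% to 3.92% mitochondrial reads, BTZ libraries 4.11% to 67.6% and IBR libraries 5.58% to 20.9%. Library names fall into 2 series: 8 libraries of MINO-P and MINO-VR (CON, CLF, BTZ and BTZ_CLF) start with HK, and the other 48 with MCL. Within both MINO cultures, CON against IBR, YM155 or S63845 therefore cannot be told apart from the name series. There are also 8 pairs of libraries, always replicates 1 and 2 of a BTZ, BTZ_CLF, IBR or IBR_CLF group in MINO-P, MINO-VR or JEKO-1. Their names differ only by a suffix a. They were taken as near-identical in profile and may not be independent. Single values still differed: the JEKO-1 BTZ_CLF pair had HLA-DQB1 at 8.01 and 24.9 nuclear CPM and mitochondrial shares of 80.5% and 65.5%. In 5 groups of Z138 with 2 libraries each (CON, CLF, IBR, S63845 and IBR_CLF), 1 library name carries a suffix A and the other does not. The labels do not say what the suffix marks. The 2 sets differed in the same way across these groups: the log2 difference without minus with suffix, over 14120 genes, correlated between groups at 0.239 to 0.626 (Pearson, 10 pairs of groups).

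The cultures expressed B cell genes throughout. The summed level of 6 B cell markers was 879 to 2371 nuclear CPM in CON, 657 to 1856 in BTZ and 885 to 3347 in IBR. Summed T cell markers (5 genes) reached 11.3 to 42.3 in CON, 0 to 28.6 in BTZ and 0.178 to 4.01 in IBR. The 4 measured myeloid markers summed to 0.065 to 1.16 in CON, 0 to 12.04 in BTZ and 0.328 to 7.70 in IBR. The part of these shifts in the results was not tested.

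Untreated cells of all 4 cultures expressed the whole set. Per kilobase of the principal transcript, which was computed for 9 members, CD74 was highest in each culture (2759 to 4649 nuclear CPM per kb) and HLA-DRA next (864 to 1406). HLA-DMB was lowest in MINO-P, MINO-VR and Z138 (83.3, 60.9 and 15.5 per kb), and HLA-DQA1 was lowest in JEKO-1 (21.8 per kb). CIITA, left out of the length scale, had 246 nuclear CPM in MINO-P, 311 in MINO-VR, 248 in JEKO-1, and 199 and 309 in Z138 without treatment.

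**Figure D1:**
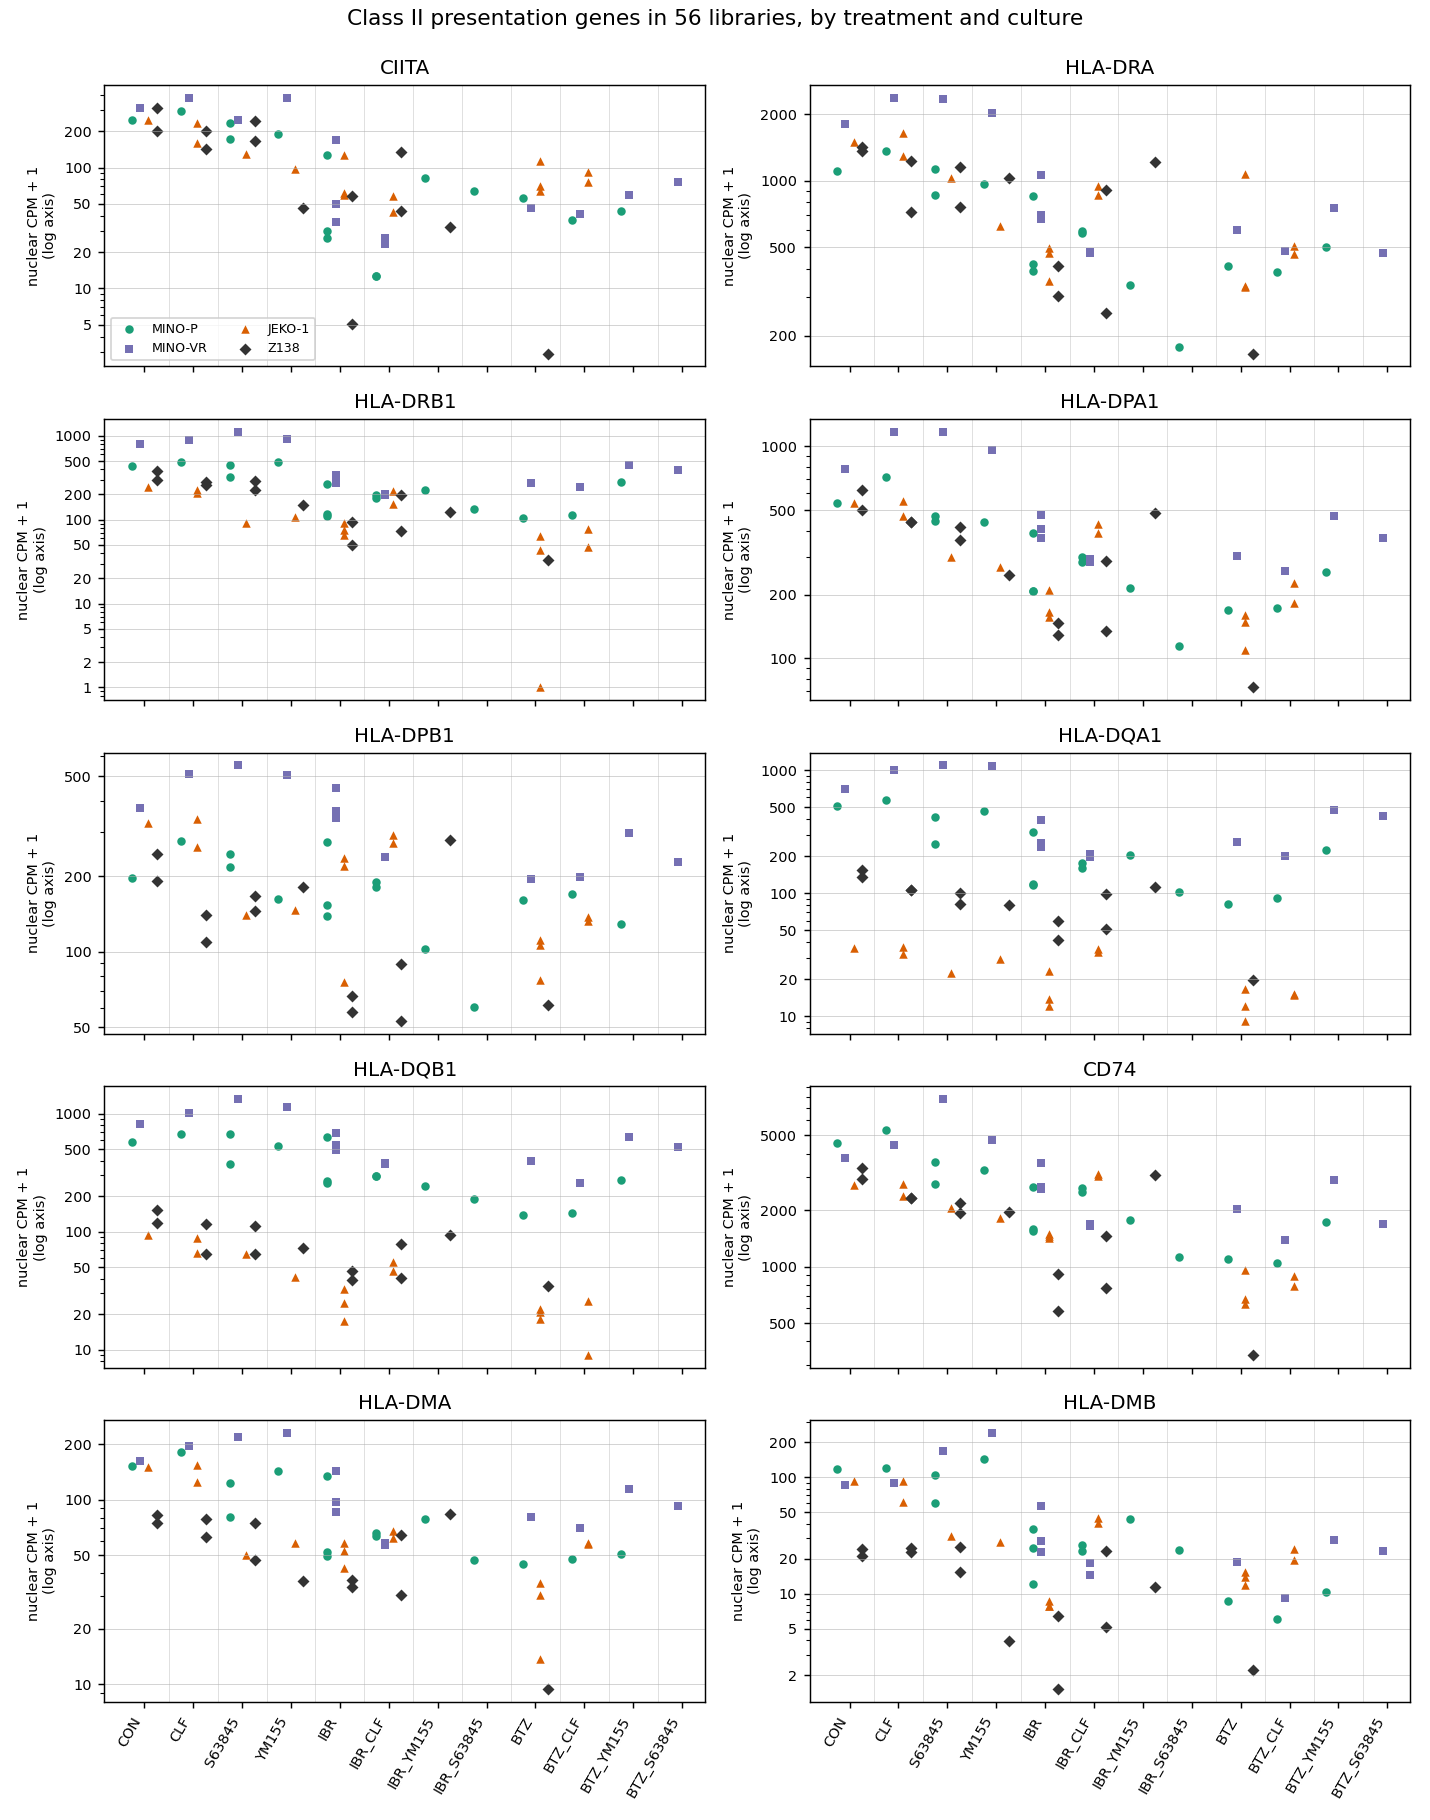
Level of each of the 10 class II presentation genes (nuclear CPM + 1, log axis) in 56 libraries by treatment, with 1 point per library and the culture as colour and shape. BTZ libraries lie below the CON libraries of their culture for every gene, and HLA-DRB1 is at 0 in 1 JEKO-1 BTZ library.

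BTZ lowered all 10 class II presentation genes, in all 4 cultures. Every BTZ library was below every CON library of its own culture for 10 of 10 members, against 12.1% of the 17203 genes tested. The limma model over all 56 libraries, with culture and name series as terms, called 10 of 10 members lower at an adjusted p under 0.05 (Benjamini-Hochberg over all genes), against 13.8% of all genes called lower. The median log2 fold change of the members was -2.10, beside -0.17 over all genes. With the mitochondrial genes kept in the total, the latter was -0.42. In bulk libraries, fewer expressing cells and less RNA per cell cannot be told apart.

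CIITA, the transactivator, fell from 246 to 54.9 nuclear CPM in MINO-P and from 311 to 45.3 in MINO-VR. In JEKO-1 it was 248 untreated and 69.2, 63.4 and 112.8 in the 3 BTZ libraries. In Z138 it was 199 and 309 untreated and 1.89 with BTZ, the lowest CIITA level of the 56 libraries. The Z138 BTZ library had 13172 genes above 0, the second fewest of all libraries, beside 16486 and 16095 in the Z138 CON libraries; the part of this in the CIITA level was not tested. The groups did not overlap in any culture, and Z138 showed the widest gap. The log2 fold change over the cultures was -2.98 (SE 0.63, adjusted p = 0.000558, limma), and -2.21 without the Z138 BTZ library (adjusted p = 0.00616).

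HLA-DRA encodes the DR alpha chain, shared by all DR molecules. It was 1106 untreated and 410 with BTZ in MINO-P, and 1799.9 and 596 in MINO-VR. JEKO-1 had 1494 untreated and 333, 329 and 1074 with BTZ, and Z138 had 1357 and 1421 untreated and 165 with BTZ. The groups stayed apart in each culture, although the third JEKO-1 BTZ library came close to the untreated one. HLA-DRA fell by 1.88 on the log2 scale (SE 0.34, adjusted p = 9.68e-05, limma).

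HLA-DRB1, the main DR beta chain, was 442 untreated and 104 with BTZ in MINO-P, and 793 and 270 in MINO-VR. Z138 had 293 and 384 untreated and 32.1 with BTZ, and JEKO-1 had 247 untreated and 43.1, 62.3 and 0 with BTZ. The library at 0, the third JEKO-1 BTZ library, also had the fewest genes above 0 (11896, against 13172 to 17603 in the others), while HLA-DRA was at 1074 there and HLA-DRB5 at 10.8. HLA-DRB1 fell by 3.20 on the log2 scale (SE 0.55, adjusted p = 4.22e-05, limma) with that library and by 2.35 (adjusted p = 5.24e-07) without it.

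The DP and DQ chains fell as well. HLA-DPA1 (DP alpha chain) went from 538 to 168 in MINO-P, from 778 to 302 in MINO-VR, from 541 to 147, 160 and 108 in JEKO-1, and from 499 and 618.5 to 71.9 in Z138. Its log2 fold change of -2.05 had the smallest SE of the set (0.27, adjusted p = 9.47e-07, limma). HLA-DPB1 (DP beta chain) showed the smallest difference, -1.39 (SE 0.33, adjusted p = 0.00185), with 196 untreated and 160 with BTZ in MINO-P. HLA-DQA1 fell by 2.07 (SE 0.31, adjusted p = 5.83e-06) and HLA-DQB1 by 1.88 (SE 0.29, adjusted p = 8.1e-06). In MINO-P, HLA-DQA1 went from 509.7 to 81.1 and HLA-DQB1 from 570.0 to 137.6.

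CD74 was 4561 untreated and 1101 with BTZ in MINO-P, 3801 and 2018 in MINO-VR, 2706.5 and 632, 668 and 958 in JEKO-1, and 2932 and 3343 against 336 in Z138. Its log2 fold change was -2.13 (SE 0.31, adjusted p = 4.94e-06, limma). Both chains of HLA-DM, the peptide editor, fell too. HLA-DMA fell by 2.18 (SE 0.31, adjusted p = 3.33e-06) and HLA-DMB by 2.91 (SE 0.50, adjusted p = 4.81e-05). HLA-DMB was 116 untreated and 7.64 with BTZ in MINO-P, 85.0 and 17.9 in MINO-VR, 91.3 and 12.9, 14.5 and 10.8 in JEKO-1, and 20.3 and 23.0 against 1.23 in Z138. Every BTZ library was thus far below the untreated HLA-DMB level of its culture.

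IBR lowered 9 of 10 members. The limma model called 9 lower, against 6.39% of all genes, with a member median of -1.42 beside -0.002 over all genes. For 8 of 10 members every IBR library was below every CON library in each culture, against 7.45% of all genes; the exceptions were HLA-DPB1 and HLA-DQB1. In JEKO-1 and Z138, whose CON and IBR libraries share a name series, all 10 members were lower in each IBR library, against 11.1% of all genes. A limma fit on Z138 alone (2 CON and 2 IBR libraries) called 0 of 14120 genes and so no member (lowest adjusted p 0.105), with all 10 members and 2748 genes at an unadjusted p under 0.05. With the set of library names as a replicate block, that fit called 8 of 10 members lower and 703 genes in either direction; HLA-DMA (adjusted p = 0.0509) and HLA-DMB (adjusted p = 0.0594) missed the threshold.

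CIITA was 25.0, 28.8 and 127.0 in the MINO-P IBR libraries, 48.8, 34.5 and 168 in MINO-VR, 60.01, 57.9 and 126 in JEKO-1, and 4.05 and 57.5 in Z138. All 11 values were below the lowest untreated CIITA level, 199. The third replicate was the highest of its group in JEKO-1 and both MINO cultures. In both MINO cultures the first and second replicates had lower depth (7.90 to 10.02 M reads) and a higher mitochondrial share (14.2% to 17.5%) than the third. The third had 16.39 M reads and 8.51% in MINO-P, and 18.65 M reads and 7.92% in MINO-VR. JEKO-1 showed the same order, with 7.07 and 7.71 M reads and 20.9% and 19.9%, against 15.58 M reads and 13.5% in the third. The part of these differences in the levels was not tested. CIITA fell by 2.47 on the log2 scale (SE 0.62, adjusted p = 0.00673, limma). That call was lost with JEKO-1 and Z138 alone, whose CON and IBR libraries share a name series (-2.83, adjusted p = 0.0894), and with Z138 alone (-3.86, adjusted p = 0.114; 0.048 with the replicate block).

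HLA-DRA with IBR was 391, 419 and 848 in MINO-P, 671, 698 and 1055 in MINO-VR, 496, 471 and 349.9 in JEKO-1, and 413 and 302 in Z138. It stayed below the untreated libraries in each culture and fell by 1.54 (SE 0.34, adjusted p = 0.00223, limma). HLA-DRB1 fell by 1.59 (SE 0.54, adjusted p = 0.047), a call lost in 19 of 28 alternative settings (highest adjusted p = 0.263). HLA-DPA1 fell by 1.47 (SE 0.26, adjusted p = 0.000266), while HLA-DPB1, at -0.82 (SE 0.32, adjusted p = 0.0887), did not pass the test. HLA-DPB1 spread from 137.9 to 272 in the MINO-P IBR libraries around an untreated level of 196.

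HLA-DQA1 fell by 1.36 (SE 0.30, adjusted p = 0.00249, limma) and HLA-DQB1 by 1.34 (SE 0.28, adjusted p = 0.00141). HLA-DQB1 reached 631 in the third MINO-P IBR library, above the 570.0 of the untreated one, and 266 and 258 in the other two. CD74 fell by 1.15 (SE 0.31, adjusted p = 0.011) and HLA-DMA by 1.10 (SE 0.30, adjusted p = 0.0139). The CD74 call was lost without the second Z138 CON library (adjusted p = 0.0661), on the deposited scale (0.057) and with each culture and treatment averaged to 1 value (0.125). The HLA-DMA call was lost without the JEKO-1 CON library (adjusted p = 0.0628) and with the averaged groups (0.0669).

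HLA-DMB showed the widest IBR difference of the set, -3.01 (SE 0.49, adjusted p = 8.59e-05, limma). It was 23.7, 11.2 and 34.8 in MINO-P, 27.2, 21.7 and 55.2 in MINO-VR, 6.78, 7.59 and 6.81 in JEKO-1, and 0.53 and 5.41 in Z138. The lowest of these, in Z138, compares with 0.197 nuclear CPM for 3 reads in that library. JEKO-1 stood at 91.3 untreated, far above its 3 IBR libraries.

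**Figure D2:**
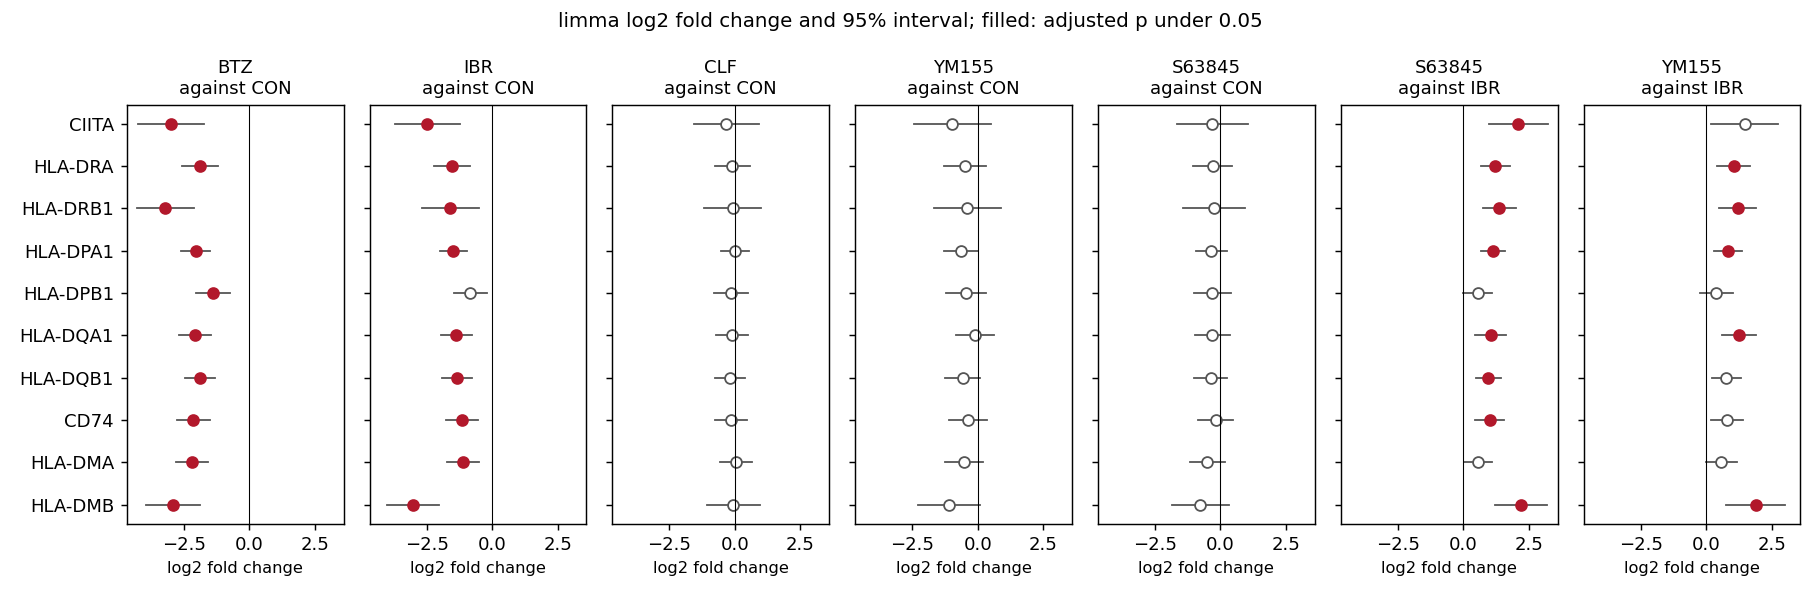
Log2 fold change of each class II presentation gene with its 95% interval, from limma, in the comparisons of BTZ, IBR and other agents named in the panels; filled points passed an adjusted p under 0.05. All 10 members are called lower with BTZ and 9 with IBR, with HLA-DPB1 the exception.

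Genes that work beside the members were read from lists by role. Of the other class II genes, 5 of 7 had a row, and all 5 were called lower with BTZ, against the 13.8% of all genes: HLA-DOB -2.42, HLA-DRB5 -2.26, HLA-DOA -2.07, HLA-DQA2 -2.03 and HLA-DQB2 -1.61 (list median -2.07, limma). In untreated MINO-P and MINO-VR, HLA-DQB2 was at 0.13 and 0 nuclear CPM and HLA-DQA2 at 2.18 and 1.85. These copies thus had little or no room to fall in the MINO cultures. HLA-DOA and HLA-DOB form HLA-DO, which restrains HLA-DM. With IBR, 3 of the 5 were called lower, against 6.39%: HLA-DOB -2.33, HLA-DOA -1.85 and HLA-DRB5 -1.56.

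Regulators of CIITA were called lower in part. With BTZ, 6 of 12 were lower (13.8% of all genes) and none higher (list median -1.04), among them the B cell factors SPIB (-2.59) and PAX5 (-2.39). With IBR, 4 of 12 were lower (6.39% of all genes) and none higher (median -0.54): PAX5 (-2.77), SPIB (-2.72), IRF8 (-1.59) and SPI1 (-1.47). PAX5 also belongs to the B cell markers. Of the factors that bind class II promoters, 2 of 7 were called lower with BTZ, against 13.8% of all genes: RFX5 (-1.21) and RFXAP (-1.09). With IBR limma called 0 of the 7, and 3 had an unadjusted p under 0.05, as had 4179 of all 17203 genes.

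Genes of endosomal processing and of surface turnover gave single calls. Of 6 measured processing genes, 1 was called with BTZ, CTSB, higher by 0.77, and 1 with IBR, CTSD, higher by 2.89; both encode cathepsins. Of all genes, 4.87% were called higher with BTZ and 4.37% with IBR. MARCHF8, a ubiquitin ligase that takes class II molecules off the cell surface, rose with IBR by 1.15 (adjusted p = 0.000821, limma). The other listed ligase, MARCHF1, was at -0.92 and not called. MARCHF1 levels were low (median 2.34 nuclear CPM over all libraries). Of 6 costimulation and adhesion genes, ICAM1 was lower with BTZ (-2.05), beside 13.8% of all genes, and none was called with IBR.

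No member was called in CLF against CON. The members' log2 fold changes ran from -0.32 to 0.05 (median -0.10), their 95% intervals lay within -1.57 and 1.02, and limma called 0% of all genes; 0 members and 62 genes had an unadjusted p under 0.05. S63845 against CON likewise called no member and 0% of all genes. Its members ran from -0.77 to -0.17 (median -0.31) with intervals within -1.85 and 1.04, and 0 members and 428 genes had an unadjusted p under 0.05. YM155 against CON called no member, against 1.15% of all genes. Those members ran from -1.10 to -0.11 (median -0.49), intervals lay within -2.45 and 0.90, and HLA-DPA1 alone among the members (2509 genes in all) had an unadjusted p under 0.05. Missing the threshold does not show that these levels equal the untreated ones.

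Within cultures the single agents spread widely. With CLF, all 10 members were above CON in MINO-P (median log2 difference 0.24) and MINO-VR (0.29), as were 45.7% and 39.2% of all genes. In Z138 both CLF libraries were below both CON libraries for 7 members, against 8.83% of all genes. With YM155, all 10 members were above CON in MINO-VR (median log2 difference 0.38) and all 10 below it in JEKO-1 (-1.20) and Z138 (-1.005), beside 51%, 47.4% and 40.5% of all genes in the same directions. CIITA was 375 in the MINO-VR YM155 library, 189 in MINO-P, 96.6 in JEKO-1 and 44.96 in Z138. HLA-DMB was 239 in MINO-VR and 2.91 in Z138 with YM155. With S63845, MINO-VR had 9 of 10 members above CON and JEKO-1 had 10 of 10 below, beside 36.3% and 52.7% of all genes. In Z138, with 2 S63845 and 2 CON libraries, the median log2 difference was -0.50 (-0.67 to -0.20). In MINO-P it was -0.27 (-0.66 to 0.22). The MINO values of YM155 and S63845 cross the name series, and each of these groups has 1 or 2 libraries.

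Set against IBR within the MCL series, the members were higher with S63845. The limma model on the 29 libraries of IBR, IBR_CLF, YM155 and S63845, with culture as a term, called 8 of 10 members higher, against 11.8% of 16245 genes. For 6 of 10 members each S63845 library was above each IBR library of its culture in all 4 cultures, against 4.75% of all genes. CIITA with S63845 was 234 and 171 in MINO-P, 244 in MINO-VR, 129 in JEKO-1, and 240 and 164 in Z138. These values lie above the IBR values in each culture, narrowly so in JEKO-1 (129 against a highest IBR value of 126).

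CIITA was higher by 2.11 on the log2 scale (SE 0.55, adjusted p = 0.00856, limma), HLA-DMB by 2.20 (SE 0.49, adjusted p = 0.00263), HLA-DRB1 by 1.38 (SE 0.30, adjusted p = 0.0024) and HLA-DRA by 1.22 (SE 0.27, adjusted p = 0.00275). HLA-DPA1 (1.14), HLA-DQA1 (1.04), CD74 (1.01) and HLA-DQB1 (0.96) were also called. HLA-DMA (0.56, adjusted p = 0.128) and HLA-DPB1 (0.55, adjusted p = 0.161) were not. Without the MINO-VR S63845 library, HLA-DQA1 (adjusted p = 0.0724) and CD74 (adjusted p = 0.0542) lost their calls. That library had the highest summed level of the set, 16024 nuclear CPM. With each culture and treatment averaged to 1 value, no member was called.

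YM155 against IBR called 5 members higher, against 4.4% of all genes: HLA-DMB (1.90), HLA-DQA1 (1.25), HLA-DRB1 (1.21), HLA-DRA (1.06) and HLA-DPA1 (0.84). CIITA was at 1.48 with an adjusted p of 0.142 (limma). None of these 5 calls held with the near-identical pairs averaged, without the MINO-P YM155 library or without the MINO-VR YM155 library. The comparisons of S63845 and of YM155 share the IBR libraries.

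Beside the members, S63845 against IBR called 2 of 5 other class II genes higher, HLA-DOA (1.37) and HLA-DRB5 (1.07), and none lower, beside 11.8% and 6.38% of all genes. Of the 12 regulators of CIITA, 4 were called higher, led by SPIB (2.63), PAX5 (2.34) and EZH2 (0.79). CTSD was called lower (-1.48), and MARCHF1, a ligase related to MARCHF8, higher (1.44), while MARCHF8 (-0.55) was not called.

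Adding CLF to IBR or BTZ called no member. IBR_CLF against IBR had a member median of 0.25 with intervals within -1.47 and 1.60, 0% of all genes were called, and HLA-DMB alone (1679 genes in all) had an unadjusted p under 0.05. BTZ_CLF against BTZ had a median of 0.25 with intervals within -0.995 and 2.34, against 0.0698% of all genes called, and HLA-DMA and HLA-DRB1 (1284 genes in all) had an unadjusted p under 0.05. HLA-DRA with IBR_CLF was 592 and 580 in MINO-P, 470 and 476 in MINO-VR, 864 and 942 in JEKO-1, and 909 and 251 in Z138. Beside the IBR values, the MINO-VR libraries lay lower and the JEKO-1 libraries higher. All 10 members were lower in both MINO-VR libraries (16.4% of all genes) and 9 higher in both JEKO-1 libraries (19.5%); 9 did both, against 3.12%. The JEKO-1 order depends on the scaling, since its IBR_CLF libraries were 60.7% and 59.1% mitochondrial: 9 of 10 members were higher on the nuclear scale and 1 of 10 on the deposited scale.

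The remaining combinations have 1 library in a culture and no test. The share of all genes in the same direction was not computed. In Z138, IBR_YM155 had HLA-DRA at 1211, CD74 at 3087 and CIITA at 31.0. Against IBR, the members' median log2 difference there was 1.51 (0.85 to 2.17). MINO-P with IBR_S63845 had HLA-DRA at 176, HLA-DPA1 at 113 and CD74 at 1118, each below the 3 MINO-P IBR libraries. In all, 7 members lay below those libraries, and 3 (HLA-DRB1, HLA-DMB and CIITA) lay within their range. The median member difference from IBR was -0.72 (-1.58 to 0.46). MINO-P with IBR_YM155 had HLA-DRA at 336 and CD74 at 1761, with a median member difference from IBR of 0.04 (-0.81 to 0.98). With BTZ_YM155, CD74 was 1732 in MINO-P and 2896 in MINO-VR, beside 1101 and 2018 with BTZ. The members' median log2 difference from BTZ was 0.445 (-0.365 to 1.45) in MINO-P and 0.62 (0.34 to 0.86) in MINO-VR. The BTZ libraries of both cultures belong to the other name series. BTZ_S63845 in MINO-VR had CD74 at 1683 and CIITA at 74.8, with a median member difference from BTZ of 0.29 (-0.33 to 0.71).

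CIITA and the other 9 members did not always fall by the same amount. In 20 treated groups the CON library of the culture is in the same name series; there the widest fall, or the smallest rise, of the 10 members was that of HLA-DMB in 8 groups, of CIITA in 7 and of another member in 5. In the 13 MINO groups whose CON library is in the other series it was that of CIITA in 7, of HLA-DMB in 1 and of another member in 5. In MINO-P with IBR_CLF, CIITA stood at 11.8 and 11.7, which is -4.28 against CON on the log2 scale, while the other 9 had a median of -0.95. That group crosses the name series. Z138 with IBR_YM155 had -2.96 for CIITA and -0.20 for the others, and Z138 with BTZ had -6.43 and -3.06. In JEKO-1 with BTZ the values were close, at -1.63 and -1.98. HLA-DMB fell further than CIITA in MINO-P with BTZ (-3.76 and -2.14) and in JEKO-1 with IBR (-3.52 and -1.69). These are descriptions of group means, with no test. The plot draws MINO groups in the other name series than their CON library with open symbols.

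**Figure D3:**
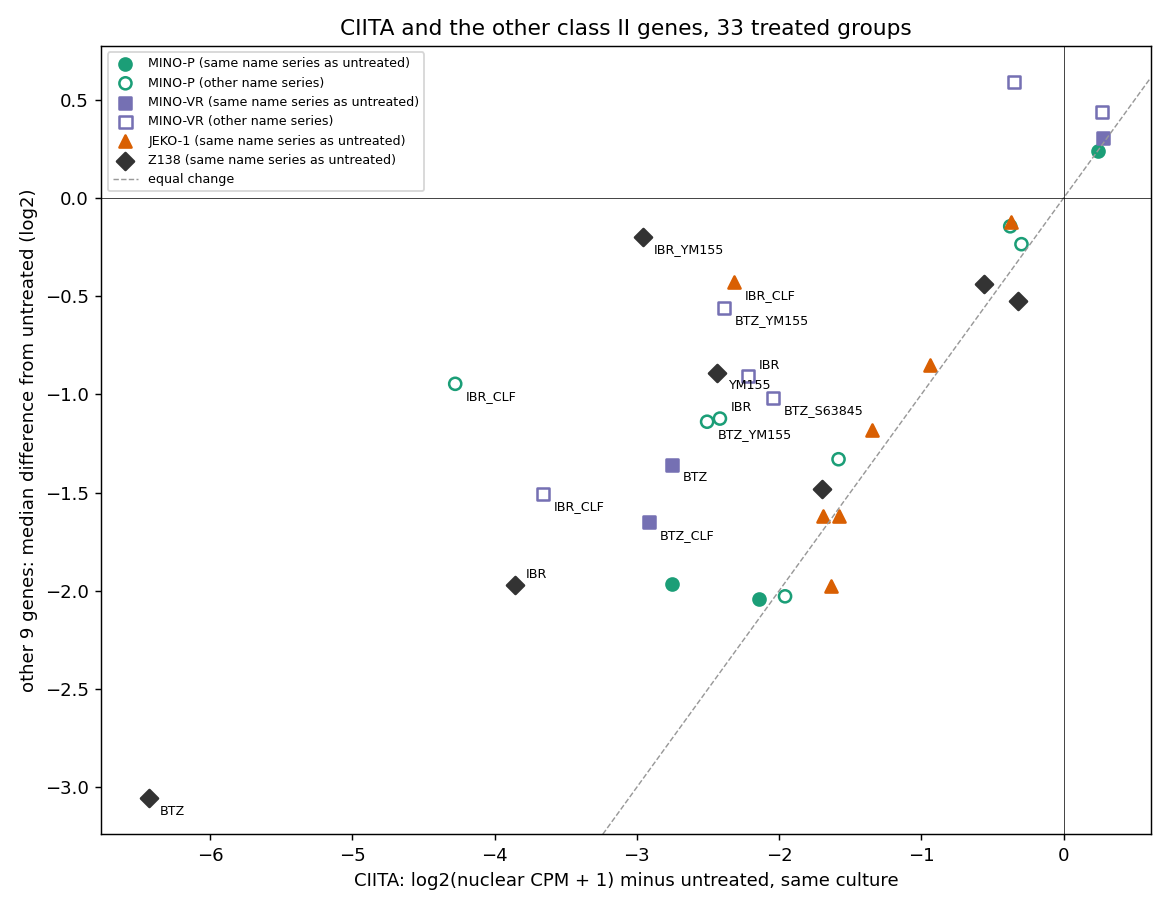
CIITA (horizontal axis) and the median of the other 9 class II presentation genes (vertical axis) as the log2(nuclear CPM + 1) difference from untreated cells of the same culture, in 33 treated groups; the dashed line marks equal change, open symbols mark groups whose CON library is in the other name series, and treatments are named where CIITA is lower by over 1 unit more. Z138 with BTZ lies at the lower left, at -6.43 and -3.06.

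Against MINO-P, JEKO-1 differed most in the DQ genes. Over the 29 libraries, that comparison called 3 members lower, against 15.6% of all genes: HLA-DQB1 (-3.30, SE 0.24, adjusted p = 4.25e-12, limma), HLA-DQA1 (-3.22, SE 0.29, adjusted p = 2.78e-10) and HLA-DRB1 (-1.03, SE 0.31, adjusted p = 0.00785). HLA-DQA1 in untreated cells was 509.7 in MINO-P, 697 in MINO-VR, 34.7 in JEKO-1, and 134 and 153 in Z138. The JEKO-1 value is the lowest, and across all 15 JEKO-1 libraries HLA-DQA1 stayed between 8.14 and 35.7. The near-identical copy HLA-DQA2 showed the opposite order: it was 69.3 in untreated JEKO-1, 2.18 in MINO-P and 1.85 in MINO-VR, and JEKO-1 exceeded MINO-P by 4.98 on the log2 scale.

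HLA-DRB5, the copy of HLA-DRB1, was likewise higher in JEKO-1 than in MINO-P, by 1.06, with 167 and 64.3 nuclear CPM untreated. HLA-DQB2, the copy of HLA-DQB1, was 7.60 in untreated JEKO-1 and 0.13 in MINO-P. Each gene summed with its copy, untreated JEKO-1 and MINO-P had 104.02 and 511.9 for HLA-DQA1 with HLA-DQA2, 99.7 and 570.1 for HLA-DQB1 with HLA-DQB2, and 414.5 and 505.9 for HLA-DRB1 with HLA-DRB5. The DQ sums were thus lower in JEKO-1 as well, with 1 untreated library in each of these cultures and no test. Such a sum accounts only for reads split between a gene and its copy. Reads of 1 culture's alleles may fall on either copy, so the levels of the single genes HLA-DQA1, HLA-DQB1 and HLA-DRB1 are uncertain between cultures.

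Z138 against MINO-P called 8 of 10 members lower, against 17.4% of all genes, leaving out CIITA (-0.00, interval -1.13 to 1.13) and HLA-DRA (-0.26, interval -0.82 to 0.30). HLA-DQB1 (-2.73), HLA-DMB (-2.48) and HLA-DQA1 (-1.73) were lowest, followed by CD74 (-1.04), HLA-DPB1 (-1.01), HLA-DMA (-0.94), HLA-DRB1 (-0.93) and HLA-DPA1 (-0.63). HLA-DMB in untreated Z138 was 20.3 and 23.0, beside 116 in MINO-P. Against JEKO-1, Z138 was higher in HLA-DQA1 (1.48, against 25% of all genes called higher) and lower in HLA-DMB (-1.58), HLA-DPB1 (-0.99) and CD74 (-0.78), against 26.2% called lower. The 3 lower calls were lost without libraries over 50% mitochondrial: HLA-DMB was then -0.94 (adjusted p = 0.154, limma), HLA-DPB1 -0.59 (0.0915) and CD74 -0.40 (0.257). CD74 was lost in 9 of 23 alternative settings, with -0.32 (adjusted p = 0.332) on the deposited scale.

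MINO-VR against MINO-P called HLA-DPB1 alone (1.00, SE 0.27, adjusted p = 0.0325, limma), against 2.76% of all genes called higher. All 10 members were above 0, from 0.36 to 1.00. HLA-DPB1 was 373 in untreated MINO-VR and 196 in MINO-P. The call was lost in 13 of 24 alternative settings.

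**Figure D4:**
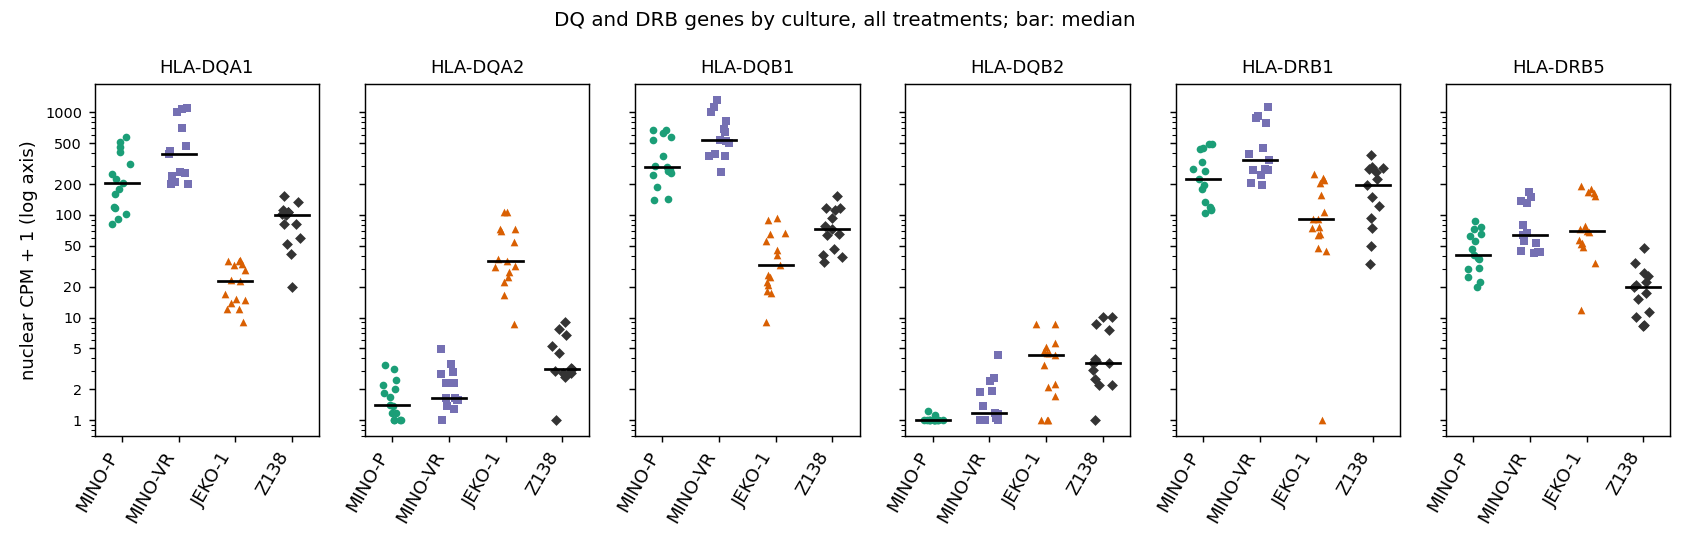
Levels of HLA-DQA1, HLA-DQB1 and HLA-DRB1 and of their near-identical copies (nuclear CPM + 1, log axis) by culture, with 1 point per library over all treatments. JEKO-1 has low HLA-DQA1 (8.14 to 35.7) and the highest median of HLA-DQA2; the bar marks the median.

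Whether the treatments acted differently between cultures was tested with the interaction of culture and treatment on the 29 libraries. The near-identical pairs entered this fit as separate libraries. How many members were called depended on size factors, array weights and single libraries left out. No member was called by limma, against 7.31% of all genes, with adjusted p from 0.0549 (HLA-DMB) to 0.355 (HLA-DQB1). At an unadjusted p under 0.05 there were 6 members and 4284 of the 16245 genes. The other class II genes HLA-DRB5 (adjusted p = 0.0142) and HLA-DOB (adjusted p = 0.0244) were called.

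Across the 37 culture and treatment means, the members correlated with one another to differing degrees. The 45 pairs of members had a median Pearson r of 0.75, from 0.37 to 0.97. After each culture's mean was subtracted the median was 0.87, from 0.53 to 0.96. Ranked among 13607 genes by likeness to HLA-DRA, the other members then stood between 1 (HLA-DPA1) and 58 (CIITA). By likeness to CIITA they stood lower, between 107 (HLA-DMA) and 2736 (HLA-DPB1). Groups share cultures and libraries, so these are descriptions. Outside the members and lists, the genes most like HLA-DRA in level were PPIA (0.81) and PSMB8 (0.80), an immunoproteasome subunit of the class I pathway encoded in the MHC. After subtracting culture means they were PTMA (0.87) and IL16 (0.85). For CIITA the most alike were FCHSD2 (0.88) and DHX33 (0.86) in level, and SFMBT2 (0.93) and DPY19L2P2 (0.90) after subtraction.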

How the data were processed

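Poly-A RNA was sequenced from 56 libraries of 4 lymphoma cultures. The authors deposited 1 table of log2(CPM + 1) values per gene and library, made with Partek on hg38, per the submitters' processing notes; the aligner, counter, annotation and strand setting are not given in the sources used here. Each column summed to the same total within rounding after the log2 was undone. A row without a gene name (at most 0.00077% of a library) was left out. Relative depth was recovered from the steps of low values (76.8% to 89.8% of them whole within 0.03 reads, so no count test was run).

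Values were rescaled without the mitochondrial genes, and limma 3.58.1 (R 4.3.3) with an intensity trend was fitted to log2(nuclear CPM + 1), a pseudocount of 1, for genes of at least 1 CPM in at least 2 libraries, with Benjamini-Hochberg adjustment over all genes and a threshold of 0.05. Fold changes on this scale understate changes of low genes. Treatment comparisons used all 56 libraries with culture and name series as terms; comparisons inside the MCL series used 29 libraries. Of the 37 groups, 22 hold 1 library, so the spread is pooled over all groups. Gene names, cultures and treatments came from the labels. The fit was tested on simulated data.

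The members, lists, motifs and tests were chosen with earlier results of these data known. All members are named; of a list, at most 3 called genes of widest difference are named per comparison, and more where a list had 5 or fewer calls, a choice made after their values were seen. Genes alike in pattern are the first by Pearson correlation. Promoters are from RefSeq (GRCh38.p14). Alternatives covered scaling, pseudocount, filter, averaged pairs and groups, array weights, cultures, each library left out, and, chosen after seeing the data, Z138 alone, with and without the 2 sets of its library names as a block (pairing taken from the names' suffix and from the correlations between groups), and libraries at most 50% mitochondrial.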

Additional observations from a re-analysis of the deposited data

Results flagged for a closer look

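Adding CLF to IBR went with opposite directions in JEKO-1 and MINO-VR for 9 of 10 members: in JEKO-1 both IBR_CLF libraries were above all 3 IBR libraries, and in MINO-VR both were below all 3. Of all 17203 genes, 19.5% were so in JEKO-1, 16.4% in MINO-VR and 3.12% in both. On the log2(nuclear CPM + 1) scale the differences in JEKO-1 and MINO-VR were 1.05 and -0.74 for HLA-DRA, 1.27 and -0.58 for HLA-DRB1, 1.21 and -0.53 for HLA-DPA1, and 0.83 and -0.68 for HLA-DPB1. They were 1.12 and -0.51 for HLA-DQA1, 1.06 and -0.60 for HLA-DQB1, 0.35 and -0.89 for HLA-DMA, 2.40 and -1.02 for HLA-DMB, and 1.08 and -0.79 for CD74. CIITA was lower in both cultures (log2 difference -0.63 in JEKO-1 and -1.44 in MINO-VR), although with size factors its JEKO-1 libraries overlapped. The difference between these 2 cultures was not itself tested. The interaction over all 4 cultures called no member, a count that changed with size factors, array weights and single libraries left out.

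The JEKO-1 direction changes with the scaling. Its IBR_CLF libraries were 60.7% and 59.1% mitochondrial. On the nuclear scale 9 members were higher and 1 lower, with size factors 9 were higher and 1 overlapped, and on the deposited scale 1 was higher, 2 were lower and 7 overlapped. In MINO-VR all 10 members were lower under each of these 3 scalings. The libraries of each IBR_CLF group, and the first 2 of each IBR group, are among the near-identical pairs.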

How the results depend on the processing

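The labels carry no replicate numbers, but Z138 library names form 2 sets, used as a replicate block in a fit of Z138 alone, chosen after seeing the data. With the block, BTZ against CON called 10 members (8 without it) and IBR against CON 8 (0 without it); CLF, YM155 and S63845 against CON and IBR_CLF against IBR called 0 either way. A block in MINO-P, MINO-VR or JEKO-1 was not run, since the suffixed libraries there belong to the near-identical pairs. No called member changed direction under any alternative run. BTZ against CON called 10 members under every alternative except Z138 alone without the block, where HLA-DQB1 (adjusted p = 0.0577, limma) and HLA-DMB (adjusted p = 0.0701) were lost and 8 remained called. The counts that moved by over 1.5 times are as follows, and the cause was not tested except where fewer libraries entered. IBR against CON called 0 members in Z138 alone without the block (9 in all). S63845 against IBR called 0 with culture and treatment groups averaged (8). YM155 against IBR (5) called 3 with size factors, 2 without a filter, 0 with pairs averaged, 0 with groups averaged and 8 with array weights. MINO-VR against MINO-P (1) called 2 on the deposited scale, 0 with size factors, without a filter, with pairs averaged or with groups averaged, 5 with array weights, 4 over all 56 libraries and 3 without libraries over 50% mitochondrial. JEKO-1 against MINO-P (3) called 6 on the deposited scale and 6 without those libraries. Z138 against MINO-P (8) called 4 with groups averaged. Z138 against JEKO-1 (4) called 2 with pairs averaged, groups averaged or array weights, 7 over all 56 libraries and 2 without libraries over 50% mitochondrial. The interaction (0) called 3 with size factors and 10 with array weights. Leaving out 1 library at a time gave 10 to 10 members for BTZ against CON, 7 to 9 for IBR against CON, 6 to 8 for S63845 against IBR, 0 to 6 for YM155 against IBR, 0 to 4 for MINO-VR against MINO-P, 3 to 3 for JEKO-1 against MINO-P, 7 to 8 for Z138 against MINO-P, 3 to 5 for Z138 against JEKO-1 and 0 to 5 for the interaction. CLF, YM155 and S63845 against CON, IBR_CLF against IBR and BTZ_CLF against BTZ stayed at 0 throughout. Among the class II genes, depth limits HLA-DQB2 most, at 1 nuclear CPM or more in 26 of 56 libraries, then HLA-DQA2 (38) and HLA-DOB (39); of the members, HLA-DMB and HLA-DRB1 were each under it in 1 library.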
